A study of Mus musculus with 8 samples.

Results

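The 9 genes described here encode enzymes of haem synthesis and proteins of iron uptake, namely Alas2, Alad, Uros, Urod, Cpox, Ppox, Fech, Tfrc and Slc25a37. They were chosen by name among the 55422 features of the count matrices, and each name matched 1 feature. Their transcripts were counted in single cells of 8 libraries, made with the 3′ v3 chemistry of 10x Genomics. The libraries hold cells of chimaeric mouse embryos, sorted by flow cytometry into a tdTomato+ fraction (Tet-TKO) and a tdTomato- fraction (WT host). Tet-TKO cells descend from ES cells of a mixed C57BL/6J and 129Sv background that lack Tet1, Tet2 and Tet3 and carry tdTomato under the CAG promoter. WT host cells come from the C57BL/6J blastocysts into which those ES cells were injected, so that the genotypes also differ in strain. Tet-TKO cells make up 4 and WT host cells 2 of the E8.5 libraries, and each genotype has 1 library at E7.5. Embryos were pooled within a library, all Tet-TKO cells derive from ES cells in culture, and every Tet-TKO cell developed beside WT cells in the same embryo.

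Alas2 (ENSMUSG00000025270, chromosome X of GRCm38/mm10, 150547375 to 150570638, plus strand) encodes the erythroid form of 5-aminolaevulinate synthase, which catalyses the committed step. Alad (ENSMUSG00000028393, chromosome 4, 62509169 to 62519918, minus strand) encodes the dehydratase that forms porphobilinogen. Uros (ENSMUSG00000030979, chromosome 7, 133686243 to 133710072, minus strand) and Urod (ENSMUSG00000028684, chromosome 4, 116989965 to 116994413, minus strand) encode uroporphyrinogen synthase and decarboxylase. Cpox (ENSMUSG00000022742, chromosome 16, 58670292 to 58717636, plus strand) and Ppox (ENSMUSG00000062729, chromosome 1, 171275990 to 171281186, minus strand) encode the oxidases of coproporphyrinogen and protoporphyrinogen. Fech (ENSMUSG00000024588, chromosome 18, 64452914 to 64490251, minus strand) encodes ferrochelatase. Tfrc (ENSMUSG00000022797, chromosome 16, 32608920 to 32632794, plus strand) encodes the transferrin receptor, which many dividing cells use. Slc25a37 (ENSMUSG00000034248, chromosome 14, 69241848 to 69285112, minus strand) encodes mitoferrin 1, which brings iron into the mitochondria of red cell precursors.

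Haem is an iron-containing ring that carries oxygen in haemoglobin. Its synthesis starts in the mitochondrion, continues in the cytosol and ends in the mitochondrion, where ferrochelatase inserts iron. In the mouse embryo the first red cells are primitive erythrocytes of the yolk sac, which fill with embryonic globins and need large amounts of haem and iron. The transcription factors GATA1 and KLF1 drive the globin and haem genes in these cells, and TET enzymes oxidise methylcytosine, a step of DNA demethylation.

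The sequence before the start site of 4 of the genes is shown. The windows of Alas2, Cpox and the internal start of Uros were chosen because they hold GATA letters, and that of Tfrc as one without them. Windows of 250 bases before annotated starts were read for 7 genes in the RefSeq annotation of GRCm38.p6, while Fech and Slc25a37 were not searched. Bases that lie in an exon of the gene are left out of the lines that follow, and capitals mark matches to the GATA letters AGATAA and AGATAG or TGATAA and TGATAG on either strand. The lines give chrX:150547167-150547374 (plus strand), chr16:58669958-58670207 (plus strand), chr7:133702617-133702750 (minus strand, before a start inside the Uros gene) and chr16:32608646-32608895 (plus strand).
Alas2: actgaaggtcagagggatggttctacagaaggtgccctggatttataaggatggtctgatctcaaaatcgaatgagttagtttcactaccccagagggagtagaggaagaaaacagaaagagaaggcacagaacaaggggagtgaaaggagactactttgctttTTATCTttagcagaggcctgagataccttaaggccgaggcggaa
Cpox: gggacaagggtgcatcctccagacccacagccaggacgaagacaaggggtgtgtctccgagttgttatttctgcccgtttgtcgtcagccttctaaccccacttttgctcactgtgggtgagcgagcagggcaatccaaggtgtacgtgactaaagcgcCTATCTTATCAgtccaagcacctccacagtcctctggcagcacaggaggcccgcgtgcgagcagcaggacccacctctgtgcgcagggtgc
Uros: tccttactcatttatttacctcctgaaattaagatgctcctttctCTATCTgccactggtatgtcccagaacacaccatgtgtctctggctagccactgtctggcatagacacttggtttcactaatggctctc
Tfrc: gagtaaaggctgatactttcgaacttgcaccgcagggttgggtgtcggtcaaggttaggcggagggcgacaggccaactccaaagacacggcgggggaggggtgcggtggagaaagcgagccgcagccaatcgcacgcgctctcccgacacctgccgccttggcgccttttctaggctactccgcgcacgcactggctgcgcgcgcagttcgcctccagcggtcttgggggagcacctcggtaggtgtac

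The Alas2 window held 1 GATA match, 86 to 81 bases before the start, and 4 matches to the KLF letters CCNCNCCC, which overlap in part. These 4 lie between 42 and 19 bases before the start, in an exon, and are not printed. KLF letters were also found 2 and 4 times in the windows of Alad, which overlap and share 2 of these matches. They were found 3 and 2 times in those of Tfrc and once at the outer start of Uros. The Cpox window held 2 GATA matches that share a base, at 91 to 86 and 86 to 81 bases before the start. The internal Uros start had 2 GATA matches, at 205 to 200 and at 68 to 63 bases, of which the nearer lies in an exon and is not printed. No GATA match was found in the windows of Alad, Urod, Ppox or Tfrc, or before the outer start of Uros. Of 32841 RefSeq windows of the same length, 26.5% held a GATA match and 45.9% a KLF match. The E-box letters CAGNTG were found in 44.8% of windows and the letters TGAGTCA in 4.46%, and no window of the 7 genes held the latter. The number of CpG dinucleotides, the sites that TET enzymes act on when methylated, was 4 in the Alas2 window, 11 in the Cpox window, 5 at the internal and 21 at the outer start of Uros, 25 and 23 at the 2 starts of Tfrc, 13 and 25 at those of Alad, 13 for Ppox and 9 for Urod, against a median of 6 (quartiles 2 and 16) over all windows.

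The libraries held between 65601218 and 136982886 UMIs, and 49866 cells were kept, with a median of 12176 to 68704 UMIs per cell in a library. Cell barcodes shared by a pair of libraries numbered 0 to 28 over 28 pairs. Tet-TKO libraries 1 and 2 resembled each other, as did libraries 3 and 4, with a chi-square per degree of freedom of 15.5 and 17.8 against 176 to 190 across these pairs. It was 141 for WT host libraries 1 and 2. Libraries 3 and 4 had fewer and deeper cells. Whether such libraries hold separate embryos is not labelled, so p-values measure only the spread between libraries. Transcripts of the Tet genes were still counted at the 3′ end in Tet-TKO cells (9.93 to 20.9 CPM for Tet1, that is UMIs of the gene over all UMIs of the sum on the usual CPM scale, against 20.4 and 22.6 in WT host cells), so they do not check the labels. A tdTomato UMI was found in 60.8% to 87.2% of E8.5 Tet-TKO cells and in 0.569% and 0.841% of WT host cells.

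The level of the haem genes over all kept E8.5 cells of a library was compared first. It is given as CPM of the sum over these cells. In Tet-TKO cells 6 of the 9 genes were called lower and none higher, at an adjusted p under 0.01 and a log2 fold change of at least 1 in edgeR's quasi-likelihood test. Over all 21075 genes tested 2.65% were called, 2.06% lower and 0.588% higher. The median log2 fold change of the 9 genes was -2.05 (edgeR estimates), against 0.02 over all genes. A sum over a library mixes the number of cells of a type with the RNA per cell, and fewer red cells and less haem gene RNA per cell cannot be told apart in it. Other cell types differed in number too. Visceral and yolk sac endoderm-like cells numbered 496 and 196 in WT host libraries and 5, 2 and 4 in Tet-TKO libraries 1, 2 and 3. In WT host cells they had the highest mean of Cpox (166.5 CPM) and Fech (68.9 CPM) outside the blood clusters. Their part in the sums was not tested.

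Alas2 had the largest fold change of the 9 genes. It stood at 1.22, 3.14, 2.64 and 1.97 CPM in Tet-TKO libraries 1 to 4 and at 42.4 and 94.9 CPM in WT host libraries 1 and 2. Every Tet-TKO library lay far below both WT host libraries, with 2.24 ± 0.833 CPM (SD, n = 4) against 68.6 ± 37.1 CPM (SD, n = 2). The log2 fold change was -5.03 (95% interval -6.07 to -3.98), with an adjusted p of 0.0019 in edgeR.

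Of the enzymes that follow, Alad had 77.9, 85.5, 68.7 and 60.8 CPM in Tet-TKO libraries and 136.8 and 196.4 CPM in WT host libraries. Uros had 8.31, 8.86, 9.84 and 9.0 CPM against 32.3 and 46.7 CPM. Urod had 58.0, 60.8, 48.2 and 45.4 CPM against 89.1 and 124.6 CPM. Of these genes only Uros was called, with a log2 fold change of -2.22 (SE 0.16) and an adjusted p of 0.0012 (edgeR). For Alad the log2 fold change was -1.26 (adjusted p = 0.017, edgeR) and for Urod it was -1.08 (adjusted p = 0.026, edgeR), both short of the threshold.

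The enzymes of the last steps were called together. Cpox had 48.8, 49.3, 59.1 and 51.8 CPM in Tet-TKO libraries and 170.3 and 234.8 CPM in WT host libraries, a log2 fold change of -2.05 (SE 0.14, adjusted p = 0.0012, edgeR). Ppox had 9.57, 10.2, 8.99 and 8.59 CPM against 29.4 and 42.0 CPM, a log2 fold change of -2.01 (SE 0.19, adjusted p = 0.0024, edgeR). Fech had 16.4, 17.8, 13.9 and 13.6 CPM against 47.1 and 74.0 CPM, a log2 fold change of -2.05 (SE 0.23, adjusted p = 0.0044, edgeR). In each case the 4 Tet-TKO libraries lay close together.

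The iron uptake genes parted. Slc25a37 had 9.90, 11.2, 20.2 and 18.8 CPM in Tet-TKO libraries against 63.6 and 124.1 CPM, and was called with a log2 fold change of -2.76 (SE 0.33, adjusted p = 0.0049, edgeR). Tfrc had 43.2, 44.9, 66.0 and 68.1 CPM against 60.9 and 75.4 CPM. Its groups overlapped, since Tet-TKO libraries 3 and 4 lay between the WT host libraries, and it was not called (log2 fold change -0.40, 95% interval -0.82 to 0.02, adjusted p = 0.21, edgeR).

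**Figure D1:**
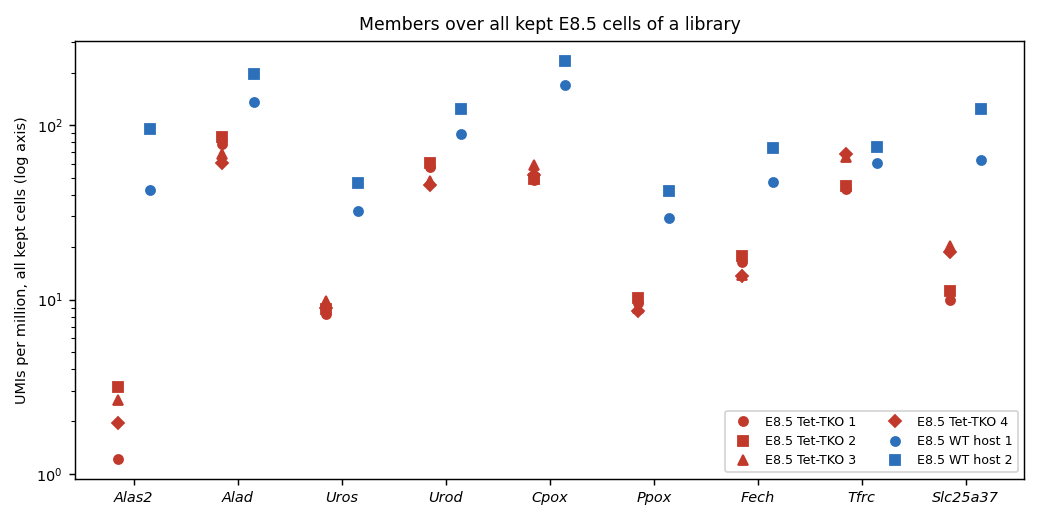
Level of each of the 9 genes over all kept E8.5 cells of a library, in CPM on a log axis, with 1 point per library (red for Tet-TKO, blue for WT host). Alas2 lies between 1.22 and 3.14 in the 4 Tet-TKO libraries and at 42.4 and 94.9 in the WT host libraries, while the Tfrc points overlap.

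The number of called genes rested on all 6 libraries. Without WT host library 2 it was 3 of 9 (Alas2, Uros and Cpox), without Tet-TKO library 1, 3 or 4 it was 4, with Ppox added, and 5 genes were called when Tet-TKO library 2 or the WT host library numbered 1 was left out. The share of all genes called fell as well, from 2.65% to between 0.499% and 1.1% in these fits. Alas2, Uros and Cpox were thus called whichever library was left out, with log2 fold changes of Alas2 from -5.52 to -4.31. When the like Tet-TKO libraries were summed (1 with 2, 3 with 4), none of the 9 and none of all genes was called (edgeR, adjusted p of 0.015 for Alas2, 3903 genes at an unadjusted p under 0.05), and all 9 log2 fold changes kept their sign. Tet-TKO libraries 1 and 2 alone gave 4 called genes beside 2.29% of all genes, without Alas2 (log2 fold change -4.98, adjusted p = 0.012, edgeR), libraries 3 and 4 alone gave 8 beside 9.77%, and DESeq2 called 8 beside 6.86%.

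Of the 51 other haem and iron genes, all of which were tested, 12 were called lower and none higher over all kept cells, beside 2.06% of all genes called lower, with a median log2 fold change of -0.46. With any 1 library left out 3 to 5 were called, beside 0.499% to 1.1% of all genes, and none with like libraries summed. They came from iron uptake and trafficking (5 of 9), other steps of synthesis and transport of intermediates (4 of 10), haem export and breakdown (2 of 9) and iron-sulphur cluster assembly (1 of 10). None was called among 7 genes of iron storage and export and 6 of iron and haem sensing. The largest log2 fold changes were those of Trf (-5.45), which encodes transferrin, Steap3 (-3.93), the ferrireductase of the transferrin cycle, Blvrb (-3.83), biliverdin reductase B, and Tfr2 (-3.21), a further transferrin receptor. The next were Hebp1 (-2.59), a haem-binding protein, Abcb10 (-2.45), a mitochondrial transporter, Slc39a8 (-2.44), a metal importer, and Fam210b (-1.91), a mitochondrial protein. All 8 had adjusted p-values from 0.00066 to 0.0079 in edgeR, but of 17 alternatives Tfr2 and Fam210b lost the call in 8, Hebp1 in 7 and Trf in 6. Of the globin genes 8 of 11 were called lower, with a median of -4.48, and of the erythroid regulators 7 of 9, among them Klf1 at -4.24 and Gata1 at -2.94. These sums too mix cell types that differed in number, and the part of each in these values, Trf included, was not tested. In cells outside the blood clusters 1 of 50 other haem and iron genes tested was called lower, beside 1.87% of all genes called. That test was added once the data had been seen, and the gene belongs to iron uptake and trafficking.

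Which cells hold these transcripts was examined next. Cells were clustered without the 9 genes, the other haem and iron genes, the globins and the erythroid regulators, and clusters were named after marker genes. The blood progenitor-like class is 1 cluster with 8 of 9 blood progenitor markers raised, and holds 217, 336, 49 and 18 cells in Tet-TKO libraries and 57 and 72 in WT host libraries. The erythroid-like class, in which 10 of 10 markers were raised, holds 5, 12, 9 and 7 Tet-TKO cells and 709 and 1540 WT host cells. An intermediate cluster, in which blood progenitor and erythroid markers were raised about equally (mean log2 fold 2.31 and 2.21) and which therefore carries no name, holds 1, 7, 5 and 0 Tet-TKO cells and 593 and 584 WT host cells. Erythroid-like cells made up 0.071%, 0.126%, 0.391% and 0.692% of cells in Tet-TKO libraries and 8.58% and 17.0% in WT host libraries.

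The scarce erythroid-like cells of Tet-TKO libraries carried little tdTomato. A tdTomato UMI was found in 2 of 5, 1 of 12, 0 of 9 and 0 of 7 of them. In blood progenitor-like cells the share was 64.5%, 40.8%, 69.4% and 88.9%, against 8.77% and 2.78% in the WT host libraries. Of the erythroid-like Tet-TKO cells, 0, 5, 3 and 2 lay in the erythroid-like cluster that holds most WT host cells, and the others in 2 clusters of shallow cells with a median UMI count of 0.201 and 0.368 of that of their library. Whether these are Tet-TKO cells, host cells that passed the sort or barcodes with free RNA was not tested.

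**Figure D2:**
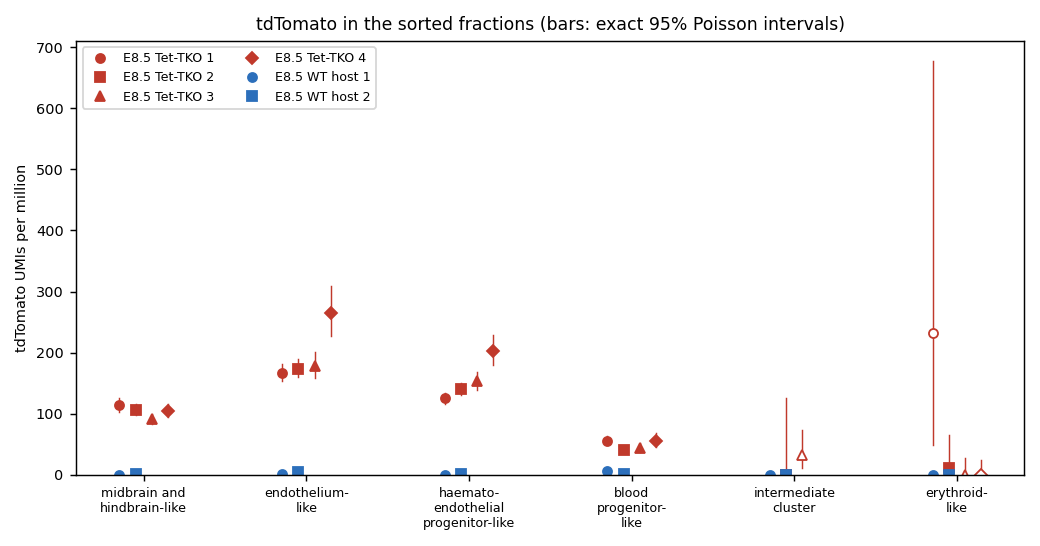
tdTomato CPM in 6 cell classes at E8.5, with 1 point per library and class, exact 95% Poisson intervals as bars and open points for sums of 5 to 9 cells. Blood progenitor-like Tet-TKO cells lie between 40.5 and 55.8, whereas erythroid-like Tet-TKO cells of libraries 3 and 4 are at 0.

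Most Alas2 UMIs came from different cells in the 2 genotypes. Blood progenitor-like cells held 84.4%, 85%, 66.7% and 53.1% of all Alas2 UMIs of the Tet-TKO libraries, and 0.629% and 0.648% of those of the WT host libraries. In the WT host libraries erythroid-like cells held 58.6% and 72.1% and the intermediate cluster 27.4% and 16.5%. Alas2 was thus counted almost wholly in the blood lineage in both genotypes, with 4.01% to 10.7% of UMIs from cells outside the blood clusters.

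The other genes were counted widely in Tet-TKO libraries. Cells outside the blood clusters held 85.5% to 91.8% of Alad UMIs in Tet-TKO libraries and 34.4% and 23.2% in WT host libraries. For Slc25a37 they held 69.7% to 85.1% against 17.5% and 10.5%. For Tfrc they held 93.0% to 94.5% against 64.8% and 49.1%, which were the highest shares of the 9 genes in either WT host library.

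**Figure D3:**
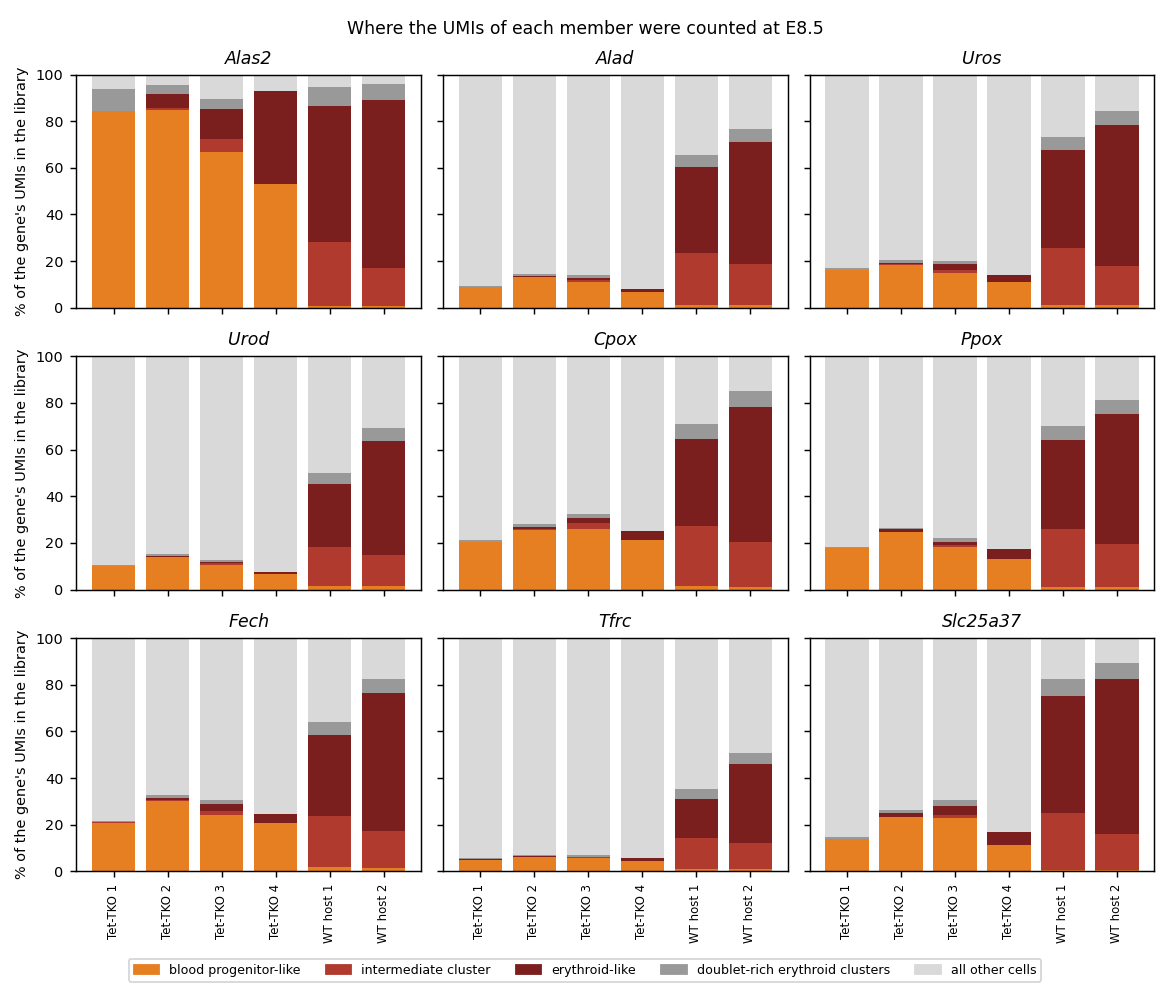
Share of each gene's UMIs in a library that came from blood progenitor-like, intermediate, erythroid-like and doublet-rich erythroid clusters and from all other cells, stacked to 100% for the 6 E8.5 libraries. Alas2 is the only panel in which blood cells hold most UMIs of the Tet-TKO libraries (53.1% to 85% in blood progenitor-like cells).

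Within WT host cells all 9 genes had their highest mean in the erythroid-like class, among 36 classes with at least 10 cells. Alas2 stood at 1.52 and 2.66 CPM in haematoendothelial progenitor-like cells, 30.8 and 67.9 CPM in blood progenitor-like cells, 133 and 193.6 CPM in the intermediate cluster and 261 and 370 CPM in erythroid-like cells. The haematoendothelial progenitor-like values are no higher than the 2.05 and 4.07 CPM of midbrain and hindbrain-like cells, which should lack Alas2. On the scale of log2(CPM + 1) the largest of these steps was the earliest, 3.66 and 4.24 in WT host libraries 1 and 2, followed by 2.07 and 1.50 and then by 0.96 and 0.93. The size of the earliest step is not exact, since it starts from a level not above that of cells that should lack Alas2. For every gene but Tfrc both erythroid-like values lay above those of the class with the next highest mean.

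For all 7 synthesis genes the earliest of these steps was the largest in both WT host libraries. Cpox had steps of 1.81 and 1.99 on this scale from haematoendothelial progenitor-like to blood progenitor-like cells, of 0.93 and 1.00 to the intermediate cluster and of 0.41 and 0.40 to erythroid-like cells. For Fech the steps were 2.78 and 3.11, then 0.29 and 0.57, then 0.54 and 0.68. Urod differed by 2.01 and 2.21 in the earliest step and by 0.06 and 0.21 in the next, so that blood progenitor-like cells and the intermediate cluster were close.

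Slc25a37 had its largest step later, with 1.12 and 1.39 in the earliest step, 2.25 and 2.29 from blood progenitor-like cells to the intermediate cluster and 0.89 and 0.90 to erythroid-like cells. Its level was 37.0 and 47.9 CPM in blood progenitor-like and 334 and 446 CPM in erythroid-like WT host cells. Tfrc changed least from haematoendothelial progenitor-like to erythroid-like cells (0.37 and 0.96). Its steps were -0.38 and -0.11, 0.56 and 0.68, and 0.19 and 0.39. In the step to the intermediate cluster Urod and Fech changed less. It had 106 and 139 CPM in erythroid-like WT host cells, which overlapped an unnamed cluster with 95.8 and 139.8 CPM.

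**Figure D4:**
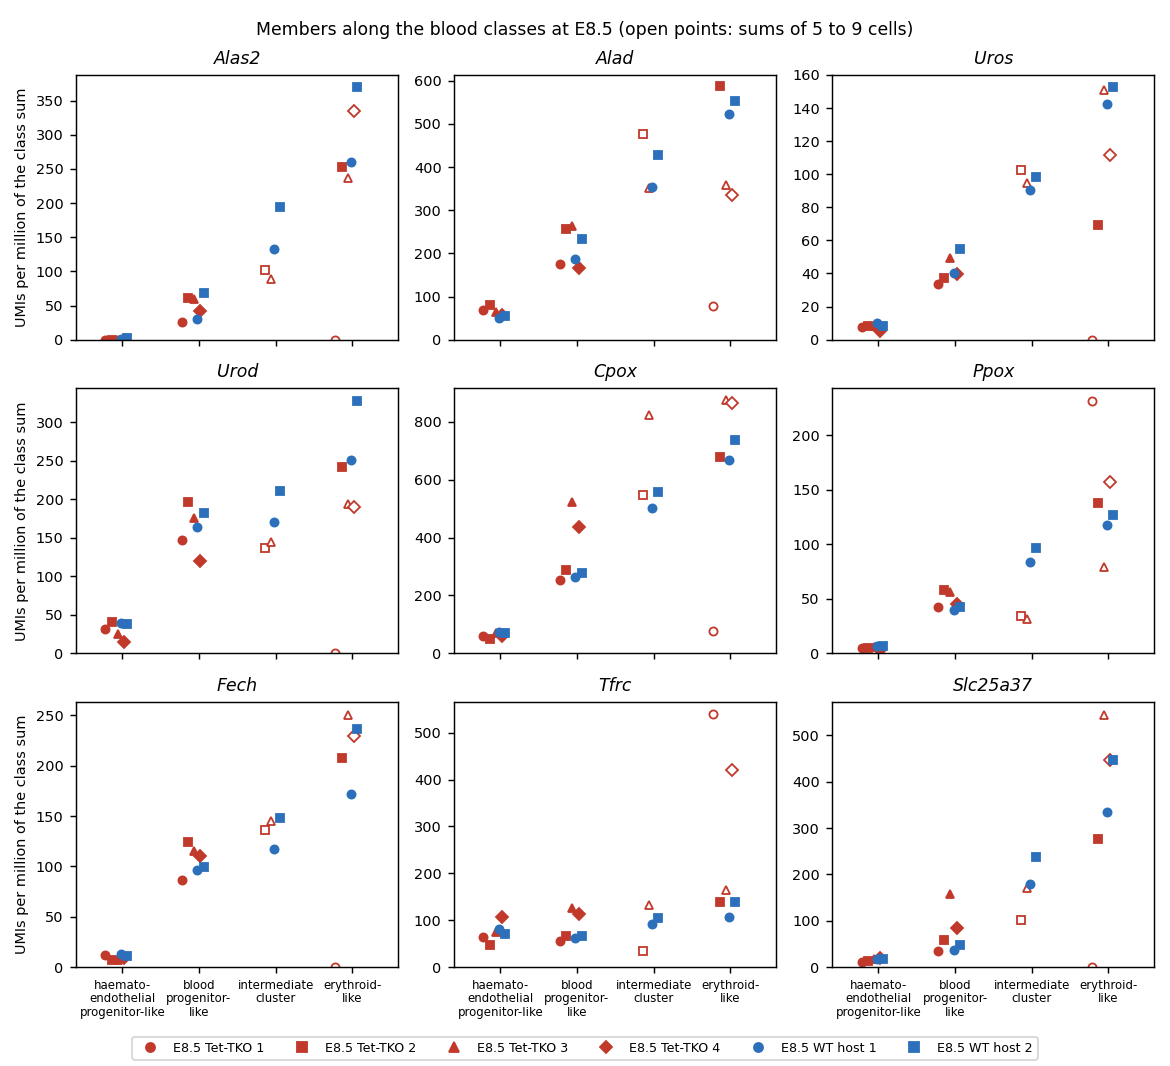
Level of each gene in CPM of the class sum at E8.5, in haematoendothelial progenitor-like cells, blood progenitor-like cells, the intermediate cluster and erythroid-like cells, with 1 point per library (red for Tet-TKO, blue for WT host) and open points for sums of 5 to 9 cells. In blood progenitor-like cells the Alas2 points of both genotypes lie between 26.2 and 67.9, and WT host erythroid-like cells reach 370.

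The genotypes were then compared within blood progenitor-like cells, the class of the lineage next to the erythroid-like cells with at least 10 cells in every library. Here none of the 9 genes was called (edgeR, lowest adjusted p 0.86, lowest unadjusted p 0.0933), and 0.0234% of all 8564 genes tested were called, with 451 genes at an unadjusted p under 0.05. DESeq2 called none of the 9 and 9 genes in all. The median log2 fold change of the 9 genes was 0.17, against 0.01 over all genes, and none of the 43 other haem and iron genes tested was called in edgeR. Some WT host cells of this class carried tdTomato UMIs and some Tet-TKO cells carried none, as given above. Whether the sums hold cells of the other fraction was not tested. With only cells whose tdTomato matched the sorted fraction, none of the 9 was called either.

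Alas2 had 26.2, 61.5, 59.9 and 41.3 CPM in blood progenitor-like cells of Tet-TKO libraries and 30.8 and 67.9 CPM in those of WT host libraries. The groups overlapped, with 47.2 ± 16.8 CPM (SD, n = 4) against 49.4 ± 26.2 CPM (SD, n = 2). The log2 fold change was -0.06, and its 95% interval from -0.90 to 0.79 covers changes of almost 1 in either direction. Alad had 176, 256, 263 and 165 CPM against 187 and 234 CPM (interval -0.43 to 0.52), also with overlap. Uros had 33.8, 37.3, 49.6 and 39.5 CPM against 40.5 and 54.9 CPM (interval -0.72 to 0.21). Urod had 147, 196, 176 and 120 CPM against 164 and 182 CPM (interval -0.52 to 0.34).

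Among the genes of the last steps Cpox was highest in Tet-TKO libraries 3 and 4. It had 252, 290, 524 and 436 CPM against 263 and 279 CPM, a log2 fold change of 0.47 (interval -0.09 to 1.03, edgeR). Ppox had 42.8, 58.1, 56.4 and 44.9 CPM against 39.7 and 42.7 CPM (interval -0.14 to 0.76). Fech had 86.8, 124, 115 and 110 CPM against 96.0 and 99.3 CPM (interval -0.21 to 0.55), with Tet-TKO library 1 below and the others above.

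The iron uptake genes were also highest in Tet-TKO libraries 3 and 4. Slc25a37 had 34.8, 59.4, 157 and 83.2 CPM against 37.0 and 47.9 CPM, a log2 fold change of 0.95 (interval -0.20 to 2.10, edgeR). Tfrc had 54.7, 65.4, 127 and 114 CPM against 62.6 and 65.3 CPM, a log2 fold change of 0.47 (interval -0.25 to 1.19, edgeR). The blood progenitor-like cells of these libraries had a median of 57100 and 96100 UMIs against 16000 to 24000 in the other 4 libraries. With only Tet-TKO libraries 3 and 4, a choice made once the data had been seen, Slc25a37 was called (log2 fold change 1.52, adjusted p = 0.0037, edgeR) beside 1.07% of all genes. Tfrc had 0.90 (adjusted p = 0.0031, edgeR) and Cpox 0.81 (adjusted p = 0.0011, edgeR), both under the minimum fold change. With only Tet-TKO libraries 1 and 2 none of the 9 was called beside 0.0111% of all genes, and Slc25a37 had 0.18 (edgeR). The part of depth in this was not tested.

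The comparison depended on where the class was cut. Without correction between libraries a cluster like the intermediate one was also named blood progenitor-like, and Alas2 (-1.88), Uros (-1.44) and Ppox (-1.05) were called lower in Tet-TKO cells, beside 2.48% of all genes (edgeR). The log2 fold changes of Slc25a37 (-1.49), Cpox (-0.73) and Tfrc (-0.30) also turned negative there, without being called. With the intermediate cluster added to the class, Alas2 (-1.79) and Uros (-1.27) were called, beside 2.32% of all genes. That cluster holds at most 7 cells of a Tet-TKO library and 593 and 584 of the WT host libraries, so the added cells are almost only WT host cells.

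Cells of a like globin content were compared to match the stage more closely. Blood progenitor-like and erythroid-like cells in which 1 to 10% of UMIs were globin were summed together. There Uros was called lower in Tet-TKO cells, beside 0.772% of all 8551 genes tested. It had 44.1, 40.5, 53.3 and 46.5 CPM in Tet-TKO libraries against 117 and 76.2 CPM, a log2 fold change of -1.21 (adjusted p = 0.0076, edgeR). Without WT host library 1 it was -0.74 (adjusted p = 0.51), without Tet-TKO library 1 it was -1.19 (adjusted p = 0.012) and without Tet-TKO library 2 it was -1.15 (adjusted p = 0.020), all short of the threshold in edgeR.

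In the same range Alas2 had 42.5, 76.0, 69.8 and 85.3 CPM against 153 and 136 CPM, a log2 fold change of -1.19 that did not pass (adjusted p = 0.012, edgeR). It was called without Tet-TKO library 1 (-1.01, adjusted p = 0.0053) or 4 (-1.28, adjusted p = 0.0073). The mix of classes in the range differed. In Tet-TKO libraries it took 103, 244, 32 and 13 blood progenitor-like cells, with median globin of 1.85%, 3.06%, 4.66% and 1.77%, which gave 99.9%, 99.6%, 99.8% and 89.5% of the UMIs of the sum. In WT host libraries it took 27 and 57 blood progenitor-like cells (11.4% and 61.6% of UMIs) and 242 and 68 erythroid-like cells, the latter with medians of 8.22% and 8.07%. In blood progenitor-like cells alone, at 1 to 10% globin, none of the 9 genes was called beside 0.09% of all genes (edgeR, Ppox and 447 of 7775 genes in all at an unadjusted p under 0.05), with Alas2 at -0.03 and Uros at -0.21.

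**Figure D5:**
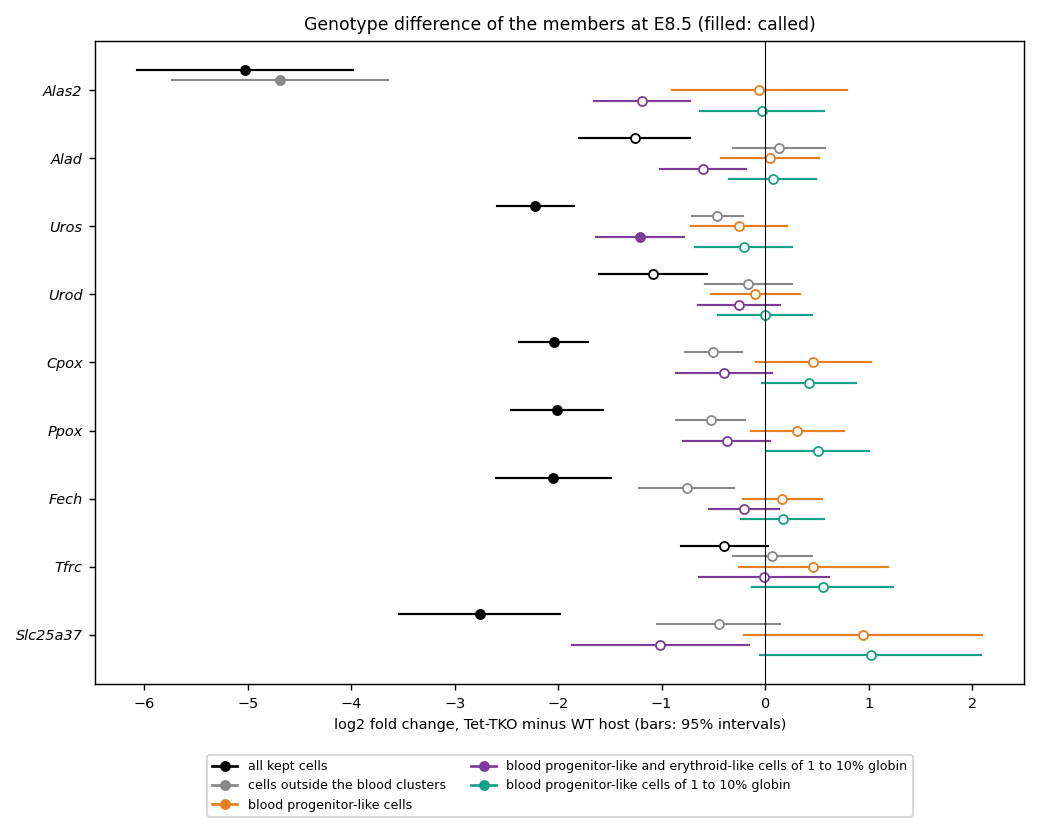
Log2 fold change of each gene, Tet-TKO minus WT host, in 5 sets of E8.5 cells, with 95% intervals as bars and filled points for genes called at an adjusted p under 0.01 and a log2 fold change of at least 1. Alas2 is at -5.03 over all kept cells, at -0.06 in blood progenitor-like cells and at -1.19 in cells of 1 to 10% globin.

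The few erythroid-like Tet-TKO cells could not be tested at 10 cells per library, since only Tet-TKO library 2 had as many. With sums of at least 5 cells, chosen after seeing the counts of cells, none of the 9 genes was called beside 0.384% of 2345 genes (edgeR, 336 genes and 2 of the 9 at an unadjusted p under 0.05). DESeq2 called none of the 9 either. Alas2 had 0, 254, 237 and 334 CPM in these cells against 261 and 370 CPM, a log2 fold change of -0.32 (interval -0.91 to 0.28). In library 1 the 5 cells were shallow and without an Alas2 UMI, and in the other 3 libraries the level was close to the WT host range. Slc25a37 had 0, 277, 545 and 446 CPM against 334 and 446 CPM, and Tfrc had 541, 138, 165 and 420 CPM against 106 and 139 CPM (log2 fold change 1.06, adjusted p = 0.14, edgeR). As most of these cells lacked tdTomato UMIs, the values may describe other cells than Tet-TKO cells, which was not tested.

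Whether the genotype difference changed between erythroid-like and blood progenitor-like cells was tested with the same sums. Most erythroid-like cells of the Tet-TKO libraries lacked tdTomato UMIs, so the fit cannot decide this for Tet-TKO cells. The difference of log2 fold changes was not called for any of the 9 genes, beside 0.144% of all genes called (edgeR). At an unadjusted p under 0.05 were 537 of 8335 genes, among them Slc25a37 (-1.42, adjusted p = 0.024), Cpox (-0.90), Alad (-0.90), Urod (-0.77) and Alas2 (-0.70), the last 4 with adjusted p-values from 0.67 to 0.77 in edgeR. The median over all genes was -0.22. Uros, Ppox, Fech and Tfrc lay between -0.59 and 0.11.

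Detection per cell gave a like picture for Alas2. At least 1 Alas2 UMI was found in 28.6%, 43.2%, 65.3% and 55.6% of blood progenitor-like Tet-TKO cells and in 36.8% and 55.6% of WT host cells of that class. After thinning each cell to 5000 UMIs the shares were 6.98%, 21.0%, 32.7% and 27.8% against 11.1% and 21.7%, with 2, 17, 0 and 0 cells and 3 and 3 cells left out as too shallow. In erythroid-like WT host cells they were 70.3% and 80.7% (92.9% and 95.8% before thinning), with 56 and 112 cells left out. In midbrain and hindbrain-like cells, which should lack Alas2, the thinned shares were 0 in all Tet-TKO libraries and 1.2% and 2.02% in WT host libraries, against 0 to 5.66% and 2.61% and 4.72% before thinning, at median depths of 11700 to 76700 UMIs. Blood progenitor-like cells thus exceeded the background share in every library, and the genotypes overlapped. Cpox was found in 69.3%, 69.3%, 77.6% and 83.3% of thinned blood progenitor-like Tet-TKO cells and in 74.1% and 69.6% of WT host cells, against 6.00% to 17.2% and 18.4% and 14.8% of midbrain and hindbrain-like cells.

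Outside the blood clusters the low Alas2 level also differed. Over these cells Alas2 had 0.0763 to 0.293 CPM in Tet-TKO libraries and 3.04 and 5.52 CPM in WT host libraries, a log2 fold change of -4.69 (adjusted p = 0.0040, edgeR, in a test added once the data had been seen). It was the only one of the 9 genes called there, beside 1.87% of 20449 genes. The other 8 had log2 fold changes between -0.76 (Fech) and 0.13 (Alad), and Tfrc had 0.07. Leaving out Tet-TKO library 2 or 4 or either WT host library left Alas2 short of the threshold, with adjusted p-values from 0.013 to 0.019 in edgeR and log2 fold changes from -5.05 to -4.22.

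Globin transcripts moved with this value. In neurectoderm-like cells, which do not make globin, globin reached 22.5, 74.9, 170 and 6.84 CPM in Tet-TKO libraries and 596 and 1797 CPM in WT host libraries, in which globin was also 1.96% and 4.80% of all UMIs against 0.0600% to 0.169%. The part of free RNA in the Alas2 value was not tested. The 9 genes had 202 tests in 29 other single classes, which include haematoendothelial progenitor-like cells but not blood progenitor-like or erythroid-like cells. Of these tests 4 were called, beside 1.01% of the tests of all genes in these classes. Without WT host library 1 none was called (0.366% of all tests), nor without WT host library 2 (0.4%). Without Tet-TKO library 1 or 3 it was 2 (1.04% and 0.993%), and without a filter on low counts 18 (1.36%). The 4 include Alas2 in 2 classes, where it passed the filter only through the WT host libraries, so that its values there are a description and carry no test.

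In cardiomyocyte-like cells, where 0.953% of genes were called, Alas2 had 0 UMIs in Tet-TKO libraries and 54 in those of the WT host. Against a limit of 3 UMIs over the Tet-TKO libraries this is at least 39.1-fold lower. Globin in these cells was at 2484 and 7825 CPM in WT host libraries and at 6.52 to 64.3 CPM in Tet-TKO libraries. In mesenchyme-like cells, where 0.907% of genes were called, Alas2 had 11 UMIs in Tet-TKO libraries (0 to 0.613 CPM) and 101 in those of the WT host (8.54 and 9.75 CPM). Slc25a37 had a log2 fold change of -1.29 there (edgeR, adjusted p = 0.0083). Globin in these cells was at 4448 and 4195 CPM in WT host libraries and at 6.33 to 280 CPM in Tet-TKO libraries. The part of RNA from red cells in the values of both classes was not tested. Alad was called higher in ExE ectoderm-like cells of Tet-TKO libraries (1.18, edgeR, adjusted p = 0.00048), a class in which 22.9% of all genes were called. This class is 1 cluster with 23, 52, 15 and 6 Tet-TKO cells, of which the 6 were not tested, and 147 and 53 WT host cells. Primordial germ cell markers were raised in it as well (mean log2 fold 3.87, against 5.62 for ExE ectoderm markers). The paper reports that injected cells, marked by tdTomato, did not contribute to the trophoblast (ExE ectoderm) of the chimaeras. What the cells of the Tet-TKO libraries in this class are was not tested. The difference of Alad is thus one between these sums, and not one of ExE ectoderm between the genotypes.

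Haematoendothelial progenitor-like cells, which precede the blood cells, had 0 or 0.161 CPM of Alas2 in Tet-TKO libraries, that is 1 UMI in all, and 1.52 and 2.66 CPM in WT host libraries. Pooled over libraries the WT host level was 33.7 times that of Tet-TKO cells, with a counting interval of 5.12 to 1423. These WT host levels lay at or below those in midbrain and hindbrain-like cells (2.05 and 4.07 CPM), which should lack Alas2, and globin stood at 539 and 1456 CPM against 624 and 1677 CPM there. The Alas2 value of this class is thus not above the level in cells that should lack the gene. Alas2 was too low for a test, and none of the other 8 genes was called in this class, where 0.803% of 10580 genes were called (edgeR, none of the 8 at an unadjusted p under 0.05). Their log2 fold changes lay between -0.51 (Ppox) and 0.39 (Alad). Cpox had 48.5 to 69.0 CPM in Tet-TKO and 69.5 and 74.1 CPM in WT host libraries, with a log2 fold change of -0.30 (adjusted p = 0.46, edgeR). A joint fit with blood progenitor-like cells, added once these values had been seen, called 0.35% of 10859 genes. Alas2 entered it only through blood progenitor-like cells, and no difference between the classes is read from it.

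Genes with the most similar pattern were sought over the 188 E8.5 sums of class and library with at least 10 cells, among 10630 genes, by Pearson's r of log2(CPM + 1). The sums share libraries and the description carries no test. Among the genes most like Alas2 were Trim10 (r = 0.932) and Klf1 (0.917), the latter an erythroid transcription factor. Cpox was most like Tmem14c (0.865), Trim10 (0.864) and Blvrb (0.861), and those most like Fech included Trim10 (0.814) and Ube2l6 (0.807). Trim10 also led for Ppox (0.749).

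Rfesd (0.825) and Trim10 (0.795) were among the genes most like Uros. Alad was most like Rfesd (0.773), Asns (0.736) and Bcas2 (0.733), Urod like Bcas2 (0.824), Prdx2 (0.746) and Epor (0.746), and Slc25a37 like Ermap (0.775), Trim10 (0.762) and Add2 (0.761). Tfrc stood apart, being most like Cep295 (0.696), Dtl (0.670) and Top2a (0.663), of which Dtl and Top2a serve DNA replication and chromosome segregation. Among the 9 genes Alas2 and Cpox (r = 0.819) and Uros and Ppox (0.813) were closely alike, whereas Tfrc had r between 0.0364 and 0.315 with the other 8.

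At E7.5 the haem genes were counted in 1 library per genotype, so there was no replicate and no test, and the 95% intervals are exact Poisson intervals that cover counting error only. Over all kept cells Alas2 had 0.0760 CPM (8 UMIs) in Tet-TKO and 2.86 CPM (296 UMIs) in WT host cells, a ratio of 37.6 with an interval of 18.9 to 88.0. Tet-TKO cells held 30 blood progenitor-like and 5 erythroid-like cells, and WT host cells 146 and 350.

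In blood progenitor-like cells Alas2 had 3 UMIs in the Tet-TKO library (3.37 CPM) and 50 in the WT host library (24.1 CPM), and the WT host level was 7.14 times as high (interval 2.31 to 35.8). Of the erythroid regulators only Gata1 and Klf1 are given here. In this class Gata1 was at 76.3 CPM (59.3 to 96.8) in Tet-TKO cells against 124.6 CPM (109.9 to 140.7). Klf1 was at 6.73 CPM (2.47 to 14.7) against 19.7 CPM (14.2 to 26.8), with intervals that just overlap, and globin stood at 167 and 246 CPM. Their part in the Alas2 value was not tested. The other synthesis genes were closer. Cpox had 121 CPM (99.4 to 146) against 131 CPM (116 to 148), Alad 49.4 CPM (35.9 to 66.3) against 41.4 CPM (33.1 to 51.1), and Fech 26.9 CPM (17.3 to 40.1) against 35.1 CPM (27.5 to 44.2), with overlapping intervals in each case. The intervals also overlapped for Urod (40.4 against 56.8 CPM), Uros (8.98 against 13.0 CPM), Ppox (13.5 against 9.62 CPM), Tfrc (39.3 against 42.8 CPM) and Slc25a37 (19.1 against 17.8 CPM).

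In the erythroid-like cells the 5 Tet-TKO cells gave 1 Alas2 UMI (10.6 CPM) against 204 in WT host cells (36.1 CPM), a ratio of 3.42 with an interval of 0.606 to 136, so no difference was detectable at this depth. These 5 cells had less of other red cell transcripts too, with globin at 137 CPM against 2431 CPM in WT host erythroid-like cells and 167 CPM in Tet-TKO blood progenitor-like cells, and Klf1 at 21.1 CPM (2 UMIs, 2.56 to 76.3) against 98.7 CPM (90.7 to 107). Cpox had 169 CPM (96.7 to 275) against 252 CPM (239 to 265). Over all kept cells Tfrc had 39.9 CPM (38.7 to 41.2) against 60.8 CPM (59.3 to 62.3), and Slc25a37 10.6 CPM (9.99 to 11.2) against 11.6 CPM (11.0 to 12.3). WT host erythroid-like cells had 36.1 CPM of Alas2 at E7.5 and 261 and 370 CPM at E8.5, and the 2 stages were clustered separately. The classes of this name were not alike. Globin made up 0.243% of their UMIs at E7.5 and 12.9% and 19.2% at E8.5. Erythroid markers led blood progenitor markers only narrowly in the E7.5 cluster (mean log2 fold 3.87 and 3.67). No rise of Alas2 within 1 cell type is read from these values.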

How the data were processed

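Cell Ranger was run by the authors on mm10 with the GRCm38.92 annotation and the tdTomato sequence. The values they deposited are UMI counts of each gene in each cell barcode, without normalisation. The methods name Cell Ranger 5.0.0, the header of the deposited counts gives 3.1.0, and the submitters' processing notes give no version. The 9 genes and the gene lists were chosen with earlier results of these data known.

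Following the methods, barcodes needed 1500 UMIs, of which no more than 30% could be mitochondrial and 35% ribosomal. Clustering was carried out per stage in Python 3.11.15 (scikit-learn 1.9.0, scanpy 1.11.5, leidenalg 0.10.2). The 2500 most variable genes gave 50 principal components. The 9 genes, the other haem and iron genes, the globins, the erythroid regulators, genes of chromosome Y, Xist and tdTomato were left out of them. Libraries were aligned through 20 mutual nearest neighbours, and a graph of 15 neighbours was split into Leiden clusters (resolution 2). A cluster was named when at least 3 markers of a class were raised and the mean log2 fold of its markers led the second class by 0.2, unless over 50% of its cells were marked as doublets. The graph and these naming limits were set after clusters, but not levels of the 9 genes, had been seen. Doublets were scored with Scrublet at 0.8% per 1000 barcodes and removed only as an alternative.

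Each class of a library with 10 or more cells gave a sum of UMIs, and sums were tested with edgeR 4.0.16 in R 4.3.3 (filterByExpr, TMM, glmQLFit, glmQLFTest) over all genes, with p-values adjusted by Benjamini and Hochberg. Calls required an adjusted p under 0.01 and an absolute log2 fold change of at least 1. Intervals of log2 fold changes use the standard error and the degrees of freedom of edgeR. DESeq2 1.42.0 was an alternative. The tests were tried on simulated sums with known changes. CPM were computed from the deposited counts. Exact Poisson intervals and the limit of 3 UMIs for a count of 0 cover counting error only. Counts at the 3′ end do not show transcript structure. The design for erythroid-like cells asked for 10 cells per library, which only 1 Tet-TKO library had, so that 5 were used.

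The rule names the 9 genes in every comparison, and the text gives some of them by count or range. Of the other haem and iron genes, called ones are named, at most 8 per comparison, and for likeness the 3 genes of highest r among those with at least 2000 UMIs, of which some are not reported here. Alternatives were DESeq2 and its size factors, no filter on low counts, globin UMIs left out, free RNA subtracted, 30 cells per sum, 3000 UMIs per cell, doublets removed, cells whose tdTomato matches the sorted fraction, resolution 1, no correction, all variable genes, libraries of like depth summed, each library left out in turn and the replicate number as a block.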

Additional observations from a re-analysis of the deposited data

Results flagged for a closer look

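In E8.5 haematoendothelial progenitor-like Tet-TKO cells (4 libraries), Alas2 was at 0.1605 CPM in library 2 and at 0 in the other 3, so that library 2 stood apart. The value is 1 UMI. In the same cells Uros was at 5.007 CPM in Tet-TKO library 4 and between 7.73 and 8.30 CPM in the other 3, which set library 4 apart. Among 45 groups of 4 libraries that were examined in this way, chance marks about 1 in 20.

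In a joint fit of blood progenitor-like and haematoendothelial progenitor-like cells, added after the values had been seen, the difference of the log2 fold changes of Alas2 was 4.41 (SE 0.81). No difference between the classes is read from it. Alas2 had 1 UMI in haematoendothelial progenitor-like Tet-TKO cells and 14 in WT host cells, was too low for a test in that class alone, and was called in only 1 of the 6 fits that leave out a library (without Tet-TKO library 4).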

How the results depend on the processing

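Over all kept cells, where 6 of the 9 genes were called, DESeq2 called 8, Tet-TKO libraries 3 and 4 alone gave 8, libraries 1 and 2 alone 4, and libraries summed in pairs 0. Leaving out each library in turn gave 3 to 5. Of the other haem and iron genes 12 were called, 0 with libraries summed in pairs and 3 to 5 with a library left out. In blood progenitor-like cells, where none of the 9 was called, no correction between libraries gave 3, the intermediate cluster added 2 and Tet-TKO libraries 3 and 4 alone 1, and leaving out each library gave 0 each time. Of the other haem and iron genes there, 1 was called with no filter on low counts and 5 with no correction (2.48% of all genes). The number of all genes called with no filter is given below. In erythroid-like cells clustering on all variable genes, at 10 cells per library, gave 1 call (0.707% of all genes) where 5 cells per library gave none. In other classes 4 calls became 18 with no filter (1.36% of all tests) and 0 to 3 with a library left out (0.366% to 1.04%). In cells of 1 to 10% globin 1 call became 2 with the intermediate cluster, for which the share of all genes is not reported here. It became 0 in blood progenitor-like cells only (0.09% of all genes) and 0 to 2 with a Tet-TKO library left out (0.538% to 0.962%). Leaving out a library gave 0 to 1 calls outside the blood clusters (0.0663% to 0.866% of all genes), for the difference between erythroid-like and blood progenitor-like cells (0.0312% to 0.244%) and for that between blood progenitor-like and haematoendothelial progenitor-like cells (0.149% to 0.36%). The cause was not tested.

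No correction between libraries turned the log2 fold changes of Cpox (-0.73), Ppox (-1.05), Tfrc (-0.30) and Slc25a37 (-1.49) in blood progenitor-like cells, and Tfrc was at -0.0561 with Tet-TKO libraries 1 and 2 alone. In cells of 1 to 10% globin Ppox ranged from -0.663 to 0.0841 with a library left out, the latter without WT host library 1. Of 153 alternative values of the 9 genes over all kept cells 129 kept their side of the threshold, 19 lost it and 5 gained it. Of 189 such values in blood progenitor-like cells 180 counted as unchanged, 3 gained a call and 6 turned in sign. A turn was counted only where either value was called or the main value exceeded its standard error. Over the 5 sets of cells compared, values that kept their side include 54 of the opposite sign that were not counted as turns. For these the main value was no larger than its standard error. Of all genes 558 were called over all kept cells, 1446 by DESeq2, 949 with no filter, 2000 with Tet-TKO libraries 3 and 4 alone, 0 with libraries summed in pairs and 109 to 230 with a library left out. In blood progenitor-like cells 2 were called, 9 by DESeq2, 54 with no filter, 69 at resolution 1, 80 with Tet-TKO libraries 3 and 4 alone, 269 with no correction, and 0 to 5 with a library left out.

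The paper describes pools of chimaeras sorted into both fractions, and it compares each Tet-TKO sample with a matching WT host. The labels do not say which libraries came from the same pool. Replicate numbers 1 and 2 are shared by the genotypes, and same-numbered libraries deviated together (r = 0.509 over 9377 genes). With 2 pairs it is not established that these match, and the main tests hold no term for the pool. The fit with the replicate number as a block holds libraries 1 and 2 of both genotypes only, so it is set beside the fit of the same libraries without the block. Over all kept cells the block gave 6 of the 9 genes against 4, 14 of the other haem and iron genes against 8 and 1762 of all genes against 464. For blood progenitor-like cells neither fit called any of the 9, and 8 of all genes were called against 1, with Tfrc at -0.0587.

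No value was had in blood progenitor-like cells with all variable genes, where no cluster took that name, or in erythroid-like cells as first clustered at 10 or 30 cells per sum, without correction or with cells matched by tdTomato. Precision is limited by 2 WT host libraries and by the 49 and 18 blood progenitor-like cells of Tet-TKO libraries 3 and 4, and E7.5 values have no replicate.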
